A study of Mus musculus with 10 samples.

Results

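The genes described here encode 4 enzyme families that make foreign and endogenous lipophilic compounds easier to excrete: cytochromes P450 of families 1 to 4 (CYP), cytosolic glutathione S-transferases (GST), UDP-glucuronosyltransferases (UGT) and cytosolic sulfotransferases (SULT). They were chosen by symbol alone (Cyp1 to Cyp4, Gsta, Gstm, Gsto, Gstp and Gstt, Ugt1 and Ugt2, Sult1 to Sult6), and symbols with the pseudogene suffix -ps were left out. This gave 132 of the 23284 features in the tables. Of these, 55 could be tested: 27 of 77 CYP, 16 of 19 GST, 6 of 18 UGT and 6 of 18 SULT genes.

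The tissue was the colorectum of BALB/c mice aged 7 weeks, with 2 libraries in each of 5 groups. In the 29a 4d, 29b 4d and NC-miR 4d groups, mice received 2% dextran sodium sulfate (DSS, a colitis-inducing polymer), plus miR-29a, miR-29b or a negative control miRNA (NC-miR), and tissue was taken on day 4. In the NC-miR 2d group, mice received DSS and NC-miR and tissue was taken on day 2. Tail vein injections on days 1, 2 and 3 brought each miRNA in a nanoparticle carrier, super carbonate apatite (sCA). The labels give these same days for the NC-miR 2d group, although its tissue is labelled day 2. Normal mice were untreated and sampled on day 0. They lacked DSS, the carrier, the injections and the control miRNA together, so these cannot be told apart in any difference from normal. All 4 treated groups carried DSS and sCA, and no group received DSS alone. The labels do not say whether the 2 libraries of a group came from separate mice, so p-values measure the spread between these samples, which may be technical.

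Each value is a log2 ratio to the gene's own baseline, so a value of 1 lies 2-fold above that baseline. The files hold no counts, so sequencing depth is unknown. A floor replaced low expression, and a gene was tested if both libraries of at least 1 group lay above it. Levels cannot be compared between genes. Differences are log2 differences of group means with their standard errors (SE), tested with limma across all 13051 features above the floor, and a gene was called at a Benjamini-Hochberg adjusted p under 0.05. In bulk tissue, fewer cells of a type and less RNA per cell cannot be told apart.

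In detoxification, CYP enzymes add or expose a reactive group (phase I). GST, UGT and SULT enzymes then attach glutathione, glucuronate or sulfate (phase II), and efflux carriers remove the products. Liver is the main site, but the intestinal epithelium has its own set, which meets diet, bile acids, drugs and bacterial products first. Many of these genes answer to ligand-activated receptors such as AHR, PXR and CAR, and to the transcription factor HNF4A.

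Most of the 132 genes were not detectable in this tissue above the floor of the files. At the floor in all 10 libraries were 74 genes, among them the AHR target enzymes Cyp1a1, Cyp1a2 and Cyp1b1, the vitamin D 25-hydroxylase Cyp2r1, the hepatic Cyp3a11 and Cyp3a25, Gsta2, Ugt2b5, the oestrogen sulfotransferase Sult1e1 and Sult2a1. None of 3 Cyp1 genes and 1 of 9 Cyp3 genes (Cyp3a13) could be tested, against 18 of 48 Cyp2, 8 of 17 Cyp4 and all 7 Gstm genes. Above the floor in all 10 libraries were 51 genes. The other 4 tested genes, Cyp2c44, Gsta1, Sult4a1 and Ugt1a6b, reached the floor in some libraries and passed through a group where they were high, so their differences are descriptions.

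**Figure D1:**
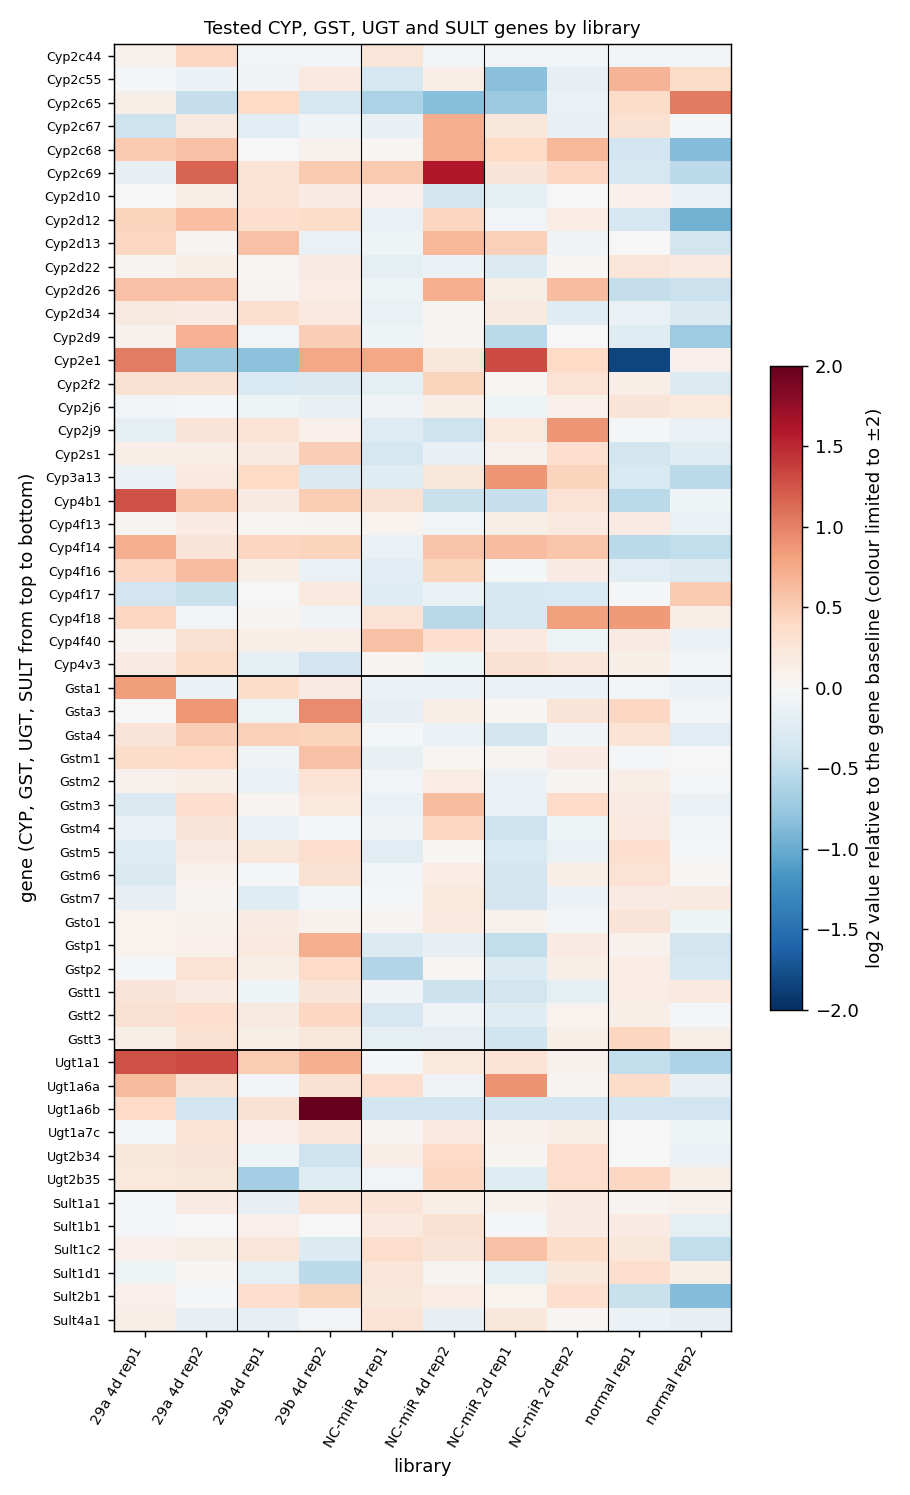
Log2 value relative to each gene's baseline (colour, limited to ±2) for the 55 tested genes (rows, by family) in the 10 libraries (columns, by group). Ugt1a1 is darkest in the 2 libraries of 29a 4d (1.27 and 1.31), and Ugt1a6b passes the colour limit in 29b 4d replicate 2 (2.69).

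MiR-29a and miR-29b belong to 1 miRNA family, known for lowering collagen and other matrix transcripts. Their mature 3p sequences are shown because they define what was injected, as far as the labels name it; the labels do not state the arm. Capitals mark the seed, bases 2 to 8, which is the same in both.
mmu-miR-29a-3p: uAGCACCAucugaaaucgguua
mmu-miR-29b-3p: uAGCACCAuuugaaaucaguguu
Counted from the 5′ end, miR-29b-3p differs from miR-29a-3p by U10C, A18G, G21U and U22A (the base of miR-29b-3p stands first), and it is 1 base longer (23 against 22). The match to the seed, TGGTGCT, was absent from the annotated 3′ UTRs of all 54 tested members that had one (0%), against 1763 of 11590 tested features (15.2%). The members' 3′ UTRs were also shorter, with a median of 432 bases against 1141. Absence of these letters says nothing of other ways in which a miRNA may reach a transcript.

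Ugt1a1, the enzyme that conjugates bilirubin, was the 1 member called against normal in single groups. Its values were 1.27 and 1.31 in 29a 4d, 0.51 and 0.71 in 29b 4d, -0.04 and 0.21 in NC-miR 4d, 0.28 and 0.09 in NC-miR 2d, and -0.49 and -0.62 in normal libraries. The 29a 4d libraries were the highest, the 29b 4d libraries came next, and both normal libraries lay below all 8 others. Ugt1a1 rose in 29a 4d by 1.84 ± 0.15 over normal, which is 3.59-fold (limma, adjusted p = 0.00196). In 29b 4d it rose by 1.16 ± 0.15, or 2.24-fold (adjusted p = 0.0231). In these comparisons 0.383% (29a 4d) and 0.46% (29b 4d) of all tested features were called. Neither NC-miR group was called against normal: the difference was 0.64 ± 0.15 in NC-miR 4d (adjusted p = 0.114) and 0.74 ± 0.15 in NC-miR 2d (adjusted p = 0.0606). Over all DSS groups together, Ugt1a1 was 1.10 ± 0.12 above normal (adjusted p = 0.00659). Without normal replicate 2, none of these 3 calls held (adjusted p = 0.0507 for 29a 4d, 0.205 for 29b 4d and 0.161 for all DSS groups), while the differences were 1.78, 1.10 and 1.03. Without normal replicate 1, the call held in 29a 4d but not in 29b 4d (adjusted p = 0.103) or over all DSS groups (0.0649). The call in 29b 4d was also lost without either 29a 4d library (0.0523 each), without its replicate 1 (0.0893) and without its replicate 2 (0.132).

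Against NC-miR 4d, the day-matched control, Ugt1a1 was 1.2 ± 0.15 higher in 29a 4d (unadjusted p = 3.22e-05, limma adjusted p = 0.21) and 0.52 ± 0.15 higher in 29b 4d (adjusted p = 0.337). Both libraries of each miR-29 group lay above both NC-miR 4d libraries, but neither difference passed the threshold. The difference between 29a 4d and 29b 4d was 0.68 ± 0.15, with no overlap of libraries (adjusted p = 0.657).

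The Ugt1a genes need care, because they are spliced variants of 1 locus on chromosome 1 (build mm10, GRCm38). Each has its own first exon, and all share exons 2 to 5. Ugt1a1 spans chr1:88211959-88218997 on the plus strand; its first exon ends at 88212871 and the shared second exon starts at 88215044. The junctions are shown because they mark where gene-specific sequence stops, with the shared exon in capitals.
Ugt1a1: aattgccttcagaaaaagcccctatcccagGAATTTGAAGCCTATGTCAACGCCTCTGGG
Ugt1a6a: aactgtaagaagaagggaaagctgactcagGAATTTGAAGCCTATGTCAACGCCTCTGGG
Ugt1a6b: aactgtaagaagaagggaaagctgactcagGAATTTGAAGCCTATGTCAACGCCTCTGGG
Ugt1a7c: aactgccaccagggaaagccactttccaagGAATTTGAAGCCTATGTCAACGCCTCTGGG
Of all 50-base stretches of annotated transcript, 58.2% of those in Ugt1a1 occurred in another gene, against 96% in Ugt1a6a, 79.8% in Ugt1a6b and 54.2% in Ugt1a7c. The junction sequences of Ugt1a6a and Ugt1a6b printed above are identical. How reads from shared exons were divided is not given in the sources used here, so the values of these 4 genes are not independent of each other.

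The other Ugt1a members were called in no comparison. Ugt1a6a, which conjugates small phenols, had 0.63 and 0.30 in 29a 4d, -0.06 and 0.30 in 29b 4d, 0.35 and -0.07 in NC-miR 4d, 0.90 and 0.05 in NC-miR 2d, and 0.37 and -0.15 in normal libraries. These groups overlap throughout. Ugt1a7c was within 0.28 of its baseline in every library. Ugt1a6b was above its floor in 3 libraries, by 0.77 in 29a 4d replicate 1, 0.67 in 29b 4d replicate 1 and 3.06 in 29b 4d replicate 2, and at the floor in the other 7. Its difference between 29b 4d and normal, at least 1.87, came mainly from that 1 library and was not called (limma, adjusted p = 0.216).

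Sult2b1, which sulfates cholesterol and pregnenolone, was higher in every DSS library than in both normal ones. Its values were 0.10 and -0.02 in 29a 4d, 0.33 and 0.44 in 29b 4d, 0.22 and 0.15 in NC-miR 4d, 0.07 and 0.33 in NC-miR 2d, and -0.44 and -0.86 in normal libraries. Over all DSS groups it rose by 0.86 ± 0.13, or 1.81-fold (limma, adjusted p = 0.0225). The difference was 1.04 ± 0.17 in 29b 4d (adjusted p = 0.0523), 0.70 in 29a 4d (adjusted p = 0.182), 0.84 in NC-miR 4d (adjusted p = 0.0906) and 0.86 in NC-miR 2d (adjusted p = 0.0599). The call was lost without normal replicate 2 (0.65, adjusted p = 0.26) or replicate 1 (1.07, adjusted p = 0.0649). Without any 1 of the 29a 4d or 29b 4d libraries its adjusted p was 0.0507 to 0.0587. None of its 50-base stretches occurred in another gene. Sult2b1 (chr7:45729983-45784669, minus strand) lies near Dbp, a clock output transcription factor (chr7:45705088-45710203, plus strand), with Sphk2, Rpl18, Fam83e and Spaca4 between them. The sphingosine kinase gene Sphk2 (chr7:45709467-45718002, minus strand) overlaps the end of Dbp. Of 5 tested genes between or near Dbp and Sult2b1, Sphk2 rose by 1.12 ± 0.14 over all DSS groups (adjusted p = 0.011), and Spaca4 by 0.73 ± 0.10 (adjusted p = 0.0167). The other 3 of these neighbours were not called: Fam83e differed by 0.44 (adjusted p = 0.0791), Car11 by -0.16 (adjusted p = 0.818) and Rpl18, a ribosomal protein gene, by -0.03 (adjusted p = 0.964).

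The Cyp2c genes, which in rodents oxidise arachidonic and linoleic acid as well as drugs, had differences of both signs. Cyp2c68 had 0.53 and 0.58 in 29a 4d, -0.00 and 0.09 in 29b 4d, 0.04 and 0.73 in NC-miR 4d, 0.40 and 0.66 in NC-miR 2d, and -0.39 and -0.87 in normal libraries. Every DSS library exceeded both normal libraries, and over all DSS groups it rose by 1.01 ± 0.19, or 2.01-fold (limma, adjusted p = 0.0485). Its neighbour Cyp2c69 was spread more widely, with -0.16 and 1.16 in 29a 4d, 0.28 and 0.52 in 29b 4d, 0.52 and 1.60 in NC-miR 4d, 0.25 and 0.42 in NC-miR 2d, and -0.33 and -0.52 in normal libraries. Its difference of 1.00 over all DSS groups was not called (adjusted p = 0.215), although all 8 DSS libraries lay above both normal ones.

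Cyp2c55, an arachidonic acid hydroxylase of the mouse large intestine, lay the other way. It had -0.04 and -0.12 in 29a 4d, -0.07 and 0.19 in 29b 4d, -0.35 and 0.13 in NC-miR 4d, -0.84 and -0.16 in NC-miR 2d, and 0.68 and 0.37 in normal libraries. Both normal libraries were the highest, and the difference over all DSS groups was -0.68 ± 0.20 (limma, adjusted p = 0.149). Cyp2c65 had 0.11 and -0.47 in 29a 4d, 0.40 and -0.34 in 29b 4d, -0.64 and -0.85 in NC-miR 4d, -0.73 and -0.13 in NC-miR 2d, and 0.36 and 1.04 in normal libraries. It overlapped normal through 1 library of 29b 4d, and its difference over all DSS groups was -1.03 ± 0.27 (adjusted p = 0.113). On day 4 it was higher in both miR-29 groups than in NC-miR 4d without overlap, by 0.57 in 29a 4d (adjusted p = 0.716) and 0.78 in 29b 4d (adjusted p = 0.406). Cyp2c67 ranged from -0.41 to 0.72, and its groups overlapped in the pooled comparison (-0.12, adjusted p = 0.859).

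These genes are copies at 1 cluster on chromosome 19. Of their 50-base stretches, 43.3% in Cyp2c68, 52.8% in Cyp2c67 and 54.8% in Cyp2c69 occurred in another gene, most often Cyp2c40, which was itself at the floor in every library. Reads shared among these copies could be split between them, so the rise of Cyp2c68 is uncertain as to which copy it belongs to. Cyp2c55 shared 0.514% and Cyp2c65 shared 20.6%.

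Promoters were searched on both strands for 6 motifs, none of which contains another, from 250 bases before to 50 after each start site (RefSeq, GRCm38.p6). A promoter was on hand for 45 tested members. The HNF4A motif CAAAGTCCA occurred in 5 of them (11.1%), against 150 of 27025 genes (0.555%). These 5 are shown with the motif in capitals, because 4 belong to the Cyp2c cluster described above.
Cyp2c65: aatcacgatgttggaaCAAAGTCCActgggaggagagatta
Cyp2c67: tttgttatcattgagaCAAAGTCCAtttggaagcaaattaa
Cyp2c68: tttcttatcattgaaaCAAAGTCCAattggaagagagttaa
Cyp2c69: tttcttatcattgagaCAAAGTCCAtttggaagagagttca
Sult1b1: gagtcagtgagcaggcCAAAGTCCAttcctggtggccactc
They lie at chr19:39060874-39060914 (plus strand), chr19:39649143-39649183, chr19:39741154-39741194 and chr19:39886820-39886860 (minus strand) for the Cyp2c genes, and at chr5:87536173-87536213 (minus strand) for Sult1b1. The Cyp2c windows resemble one another beyond the motif, so they are not separate observations. The motif stood before Cyp2c68, which rose, as well as before Cyp2c65, whose difference was negative. GCGTG, the AHR core, occurred in 26.7% of members against 35.2% of all genes. TGACNNNGC, the antioxidant element core, occurred in 15.6% against 14%, and the E-box CACGTG in 4.44% against 8.09%. The PAR bZIP D-boxes TTACGTAA and TTATGTAA occurred in no member (0%), against 0.126% and 1.11% of all genes.

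Cyp4f14, which in mouse hydroxylates leukotriene B4, was the other P450 called. It had 0.71 and 0.26 in 29a 4d, 0.43 and 0.44 in 29b 4d, -0.14 and 0.57 in NC-miR 4d, 0.61 and 0.56 in NC-miR 2d, and -0.54 and -0.49 in normal libraries. All DSS libraries exceeded both normal libraries, and over all DSS groups it rose by 0.94 ± 0.18, or 1.92-fold (limma, adjusted p = 0.0499). With the median of all features subtracted, Cyp4f14 was not called (adjusted p = 0.0502), nor were Cyp4f14 (0.0543) and Cyp2c68 (0.0521) with values as deposited. The calls of Cyp2c68 and Cyp4f14 held in 2 of 10 fits that each left out 1 library, those without an NC-miR 4d library. Without normal replicate 2 their adjusted p were 0.41 and 0.343, without normal replicate 1 they were 0.134 and 0.272, and without any 1 library of 29a 4d, 29b 4d or NC-miR 2d they ran from 0.0639 to 0.103 and from 0.0621 to 0.0974. Its relative Cyp4f17 had -0.38 and -0.44 in 29a 4d, -0.01 and 0.19 in 29b 4d, -0.25 and -0.13 in NC-miR 4d, -0.32 and -0.31 in NC-miR 2d, and -0.02 and 0.53 in normal libraries. Its difference over all DSS groups was -0.46 (adjusted p = 0.184), opposite in sign to that of Cyp4f14.

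The Cyp2d genes, relatives of a human enzyme that handles many drugs, lay mostly above normal. Cyp2d12 had 0.44 and 0.60 in 29a 4d, 0.34 and 0.37 in 29b 4d, -0.13 and 0.43 in NC-miR 4d, -0.05 and 0.15 in NC-miR 2d, and -0.34 and -0.94 in normal libraries, a difference over all DSS groups of 0.91 ± 0.19 (limma, adjusted p = 0.0626). Cyp2d26 had 0.59 and 0.58 in 29a 4d, 0.05 and 0.15 in 29b 4d, -0.10 and 0.72 in NC-miR 4d, 0.12 and 0.61 in NC-miR 2d, and -0.48 and -0.43 in normal libraries, a difference of 0.79 ± 0.21 (adjusted p = 0.111). Both were higher in all 8 DSS libraries than in both normal ones, and neither passed the threshold. Of 7 tested Cyp2d genes, 6 were above normal over all DSS groups, with a median of 0.42. Of all tested features, 6338 of 13051 were above normal, with a median of -0.01. The Cyp2d genes share sequence, from 6.03% of 50-base stretches in Cyp2d22 to 36.7% in Cyp2d10, so their values may not be independent. The exception among the 7 was Cyp2d22, whose values of 0.24 and 0.20 in normal libraries were above all DSS libraries (-0.24, adjusted p = 0.333).

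**Figure D2:**
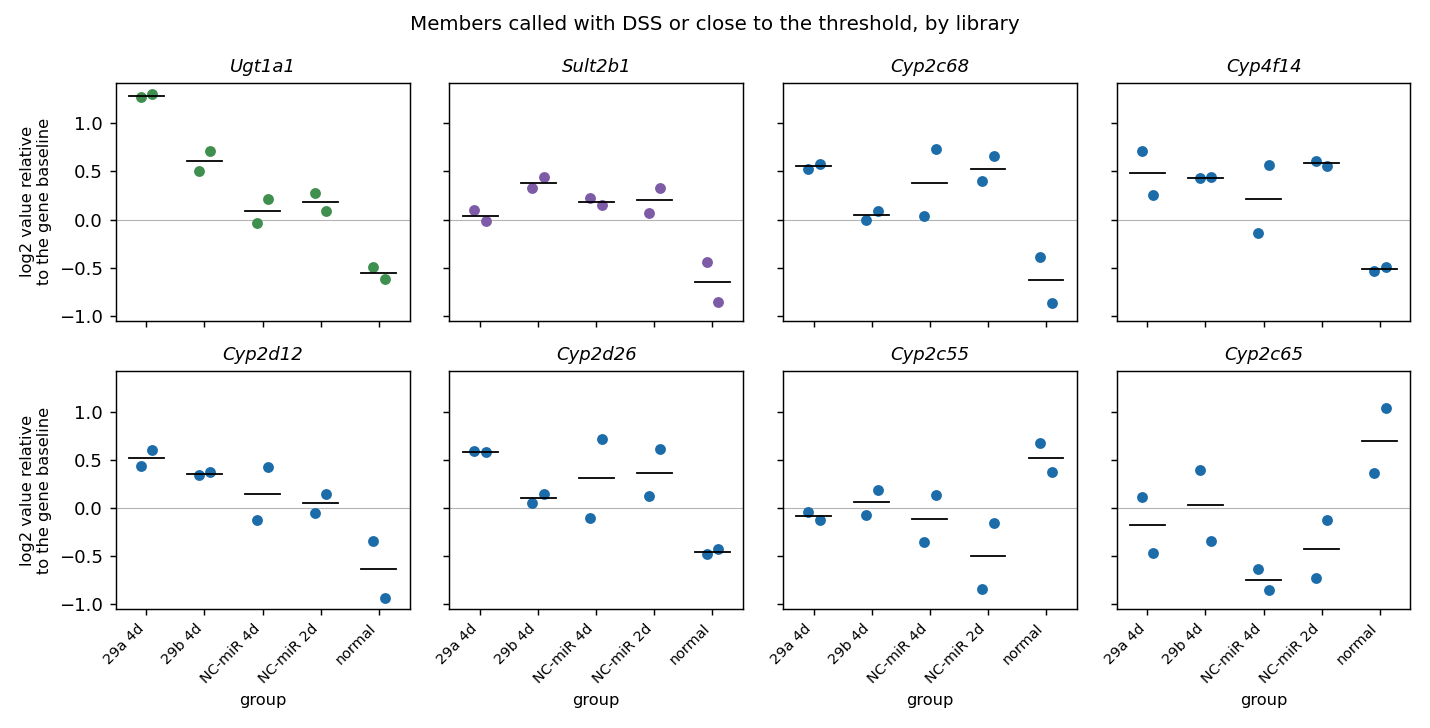
Log2 value relative to the gene baseline (vertical axis) of 8 genes in the 5 groups; points are libraries and lines are means of 2. Ugt1a1, Sult2b1, Cyp2c68 and Cyp4f14 were called over all DSS groups; Cyp2d12, Cyp2d26, Cyp2c55 and Cyp2c65 were not (adjusted p = 0.0626, 0.111, 0.149 and 0.113).

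Several other P450 genes differed between single groups without being called. Cyp3a13, the 1 member of its subfamily above the floor, had its 2 highest values on day 2, 0.89 and 0.44 in NC-miR 2d, against -0.31 and -0.53 in normal libraries (1.08, limma adjusted p = 0.12). By day 4 it had -0.24 and 0.22 in NC-miR 4d, below both day 2 libraries (-0.67, adjusted p = 0.751). Cyp2s1, an epithelial P450 known outside the liver, had 0.13 and 0.14 in 29a 4d and 0.18 and 0.49 in 29b 4d, against -0.35 and -0.15 in NC-miR 4d. Its difference from NC-miR 4d was 0.39 in 29a 4d (adjusted p = 0.663) and 0.59 in 29b 4d (adjusted p = 0.337). Cyp4b1, a fatty acid hydroxylase, had 1.27 and 0.53 in 29a 4d, against 0.30 and -0.45 in NC-miR 4d (0.98 ± 0.36, adjusted p = 0.645). The difference of Cyp4b1 ranged from 0.60 to 1.36 when 1 library of the 4 was left out. Cyp2j6, an epoxygenase of arachidonic acid, varied little, and its normal values of 0.26 and 0.21 were above all DSS libraries, which ran from -0.15 to 0.13 (-0.26, adjusted p = 0.264).

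Cyp2e1, the ethanol-oxidising P450, had replicates of opposite sign in 3 groups. It had 1.03 and -0.73 in 29a 4d, -0.82 and 0.78 in 29b 4d, 0.77 and 0.22 in NC-miR 4d, 1.31 and 0.40 in NC-miR 2d, and -1.84 and 0.10 in normal libraries. The median of adipocyte markers (7 tested of 8) was 0.90 and -0.67 in 29a 4d, -0.34 and 0.81 in 29b 4d, 0.44 and -0.15 in NC-miR 4d, 0.94 and 0.40 in NC-miR 2d, and -1.46 and 0.08 in normal libraries. The part of fat tissue in Cyp2e1 was not tested. Its difference over all DSS groups was 1.24 (limma, adjusted p = 0.384).

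By family, the comparison of all DSS groups with normal called 4 of 55 members, all higher, where 1.66% of all tested features were called. The 4 were Ugt1a1, Sult2b1, Cyp2c68 and Cyp4f14. Values did not overlap for 8 members that were higher and 3 that were lower, or 14.5% and 5.45%, against 6.86% and 5.94% of all features. CYP genes made up 6 of the 8 and all 3 of the lower ones (Cyp2c55, Cyp2d22 and Cyp2j6), and 20 of 27 CYP genes had a positive difference, with a median of 0.20 against -0.01 over all features. No GST gene stood apart from normal in all DSS libraries, and the GST median was 0.02 (-0.01 with values as deposited, and -0.16 without normal replicate 2).

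No member was called by limma in NC-miR 4d or NC-miR 2d against normal, comparisons that called 0.414% and 1.31% of all tested features, although 14 and 16 of 55 members had an unadjusted p under 0.05, against 1966 and 1897 of 13051 features. In NC-miR 4d, 18 members lay above normal without overlap (32.7%, against 23.4% of all features) and 9 below (16.4%, against 23.3%). In NC-miR 2d, 19 lay above (34.5%, against 23.2%) and 10 below (18.2%, against 24%). Over the 51 members above the floor in every library, 17 lay above in NC-miR 4d and 18 in NC-miR 2d. GST genes stood mostly on the lower side: 13 of 16 had a negative difference in each NC-miR group, with a median of -0.10 in both, but this depended on single libraries. The median for NC-miR 2d was -0.32 without its replicate 2, -0.03 without its replicate 1 and -0.00 without normal replicate 1. The median for NC-miR 4d was 0.04 without normal replicate 1, so its sign turned, and -0.28 without normal replicate 2. All 3 tested Gstt genes, which conjugate small halogenated compounds and epoxides, lay below normal without overlap in NC-miR 4d. Gstt1 had -0.07 and -0.43 in NC-miR 4d and -0.36 and -0.19 in NC-miR 2d, against 0.15 and 0.19 in normal libraries (-0.42 on day 4, adjusted p = 0.3, and -0.45 on day 2, adjusted p = 0.286). These comparisons and the pooled one share the normal libraries.

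**Figure D3:**
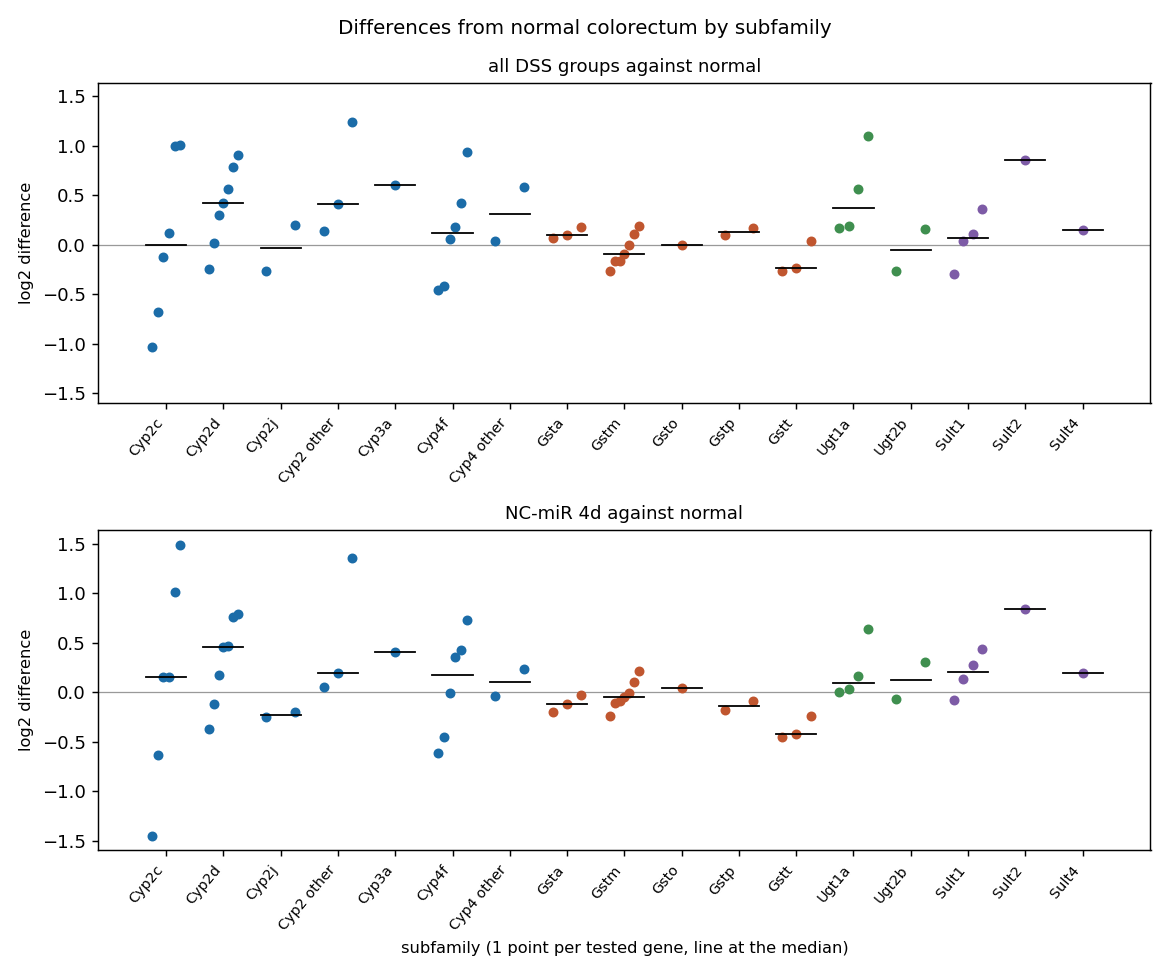
Log2 difference from normal (vertical axis) of each tested gene, by subfamily (horizontal axis), for all DSS groups (top) and NC-miR 4d (bottom); points are genes and lines are medians. Cyp2d has a median of 0.42 over all DSS groups, and the 3 Gstt genes lie below 0 in NC-miR 4d, with a median of -0.42.

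Between NC-miR 4d and NC-miR 2d, limma called no member (0.0153% of all tested features were called), and 4 of 55 members had an unadjusted p under 0.05, against 855 of 13051 features. Cyp2j9 had -0.26 and -0.41 in NC-miR 4d against 0.21 and 0.88 in NC-miR 2d (-0.88, adjusted p = 0.496). Cyp3a13 (-0.67) and Cyp2s1 (-0.46, adjusted p = 0.681) were likewise lower on day 4, and Cyp2c69 was 0.72 higher (adjusted p = 0.847), each without overlap. The label of day 2 carries the doubt about its injection days given above.

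Against NC-miR 4d, limma called no member and no feature in 29a 4d (0%) or 29b 4d (0%), and 6 and 9 of 55 members had an unadjusted p under 0.05, against 965 and 1625 of 13051 features. The GST family had the same median in both, 0.35, where the median over all features was -0.00 in 29a 4d and 0.01 in 29b 4d. In 29a 4d, 6 of 16 GST genes lay above NC-miR 4d without overlap (37.5%, against 20.4% of all features) and 0 below (0%, against 21.4%). In 29b 4d, 7 lay above (43.8%, against 21.7%) and 1 below (6.25%, against 20.2%). Gsta1 passed the floor through 29b 4d and was at the floor in NC-miR 4d. Without it the medians were 0.30 in 29a 4d and 0.34 in 29b 4d, and 6 of 15 GST genes lay above without overlap in each (40%). The medians of all 16 were smaller without single libraries: 0.15 without 29a 4d replicate 2 and 0.17 without NC-miR 4d replicate 1 for 29a 4d, and 0.11 without 29b 4d replicate 2 for 29b 4d. The 2 comparisons share the NC-miR 4d libraries.

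Among the GST genes, alpha, pi and theta members were higher and mu members were mixed. Gsta4, which conjugates the lipid peroxidation product 4-hydroxynonenal, had 0.26 and 0.49 in 29a 4d and 0.48 and 0.44 in 29b 4d, against -0.04 and -0.13 in NC-miR 4d (0.45, limma adjusted p = 0.666, and 0.54, adjusted p = 0.371). Gstt2 had 0.30 and 0.33 in 29a 4d and 0.18 and 0.41 in 29b 4d, against -0.33 and -0.07 in NC-miR 4d (0.51 ± 0.16, adjusted p = 0.629, and 0.49 ± 0.16, adjusted p = 0.349). Gstt1 and Gstt3 were also higher than NC-miR 4d in both 29a 4d libraries, by 0.46 and 0.39. Gstp1, an abundant epithelial transferase, had 0.07 and 0.10 in 29a 4d and 0.19 and 0.73 in 29b 4d, against -0.28 and -0.16 in NC-miR 4d, and its difference in 29b 4d was 0.68 ± 0.26 (adjusted p = 0.38). It shares 51% of its 50-base stretches with Gstp2, so the values of the pair are not independent. The GST counts and medians nevertheless take them as 2 genes, and in 29b 4d both lay above NC-miR 4d without overlap. Of 7 Gstm genes, 3 were above NC-miR 4d in 29a 4d and 4 in 29b 4d, with medians of -0.11 and 0.03. Gsto1, known as a dehydroascorbate reductase, lay within 0.26 of its baseline in every library. Against normal, the 29a 4d and 29b 4d GST medians were 0.04 and 0.13, and -0.03 and -0.04 without normal replicate 2.

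Markers of columnar epithelium, all 12 above the floor, were read beside these values. Their median was -0.03 and 0.11 in 29a 4d and 0.40 and 0.42 in 29b 4d, against 0.14 and -0.10 in NC-miR 4d. The part of epithelial content in the GST values was not tested. NC-miR 4d replicate 1 also stood apart in squamous markers, with a median of 4.08 over the 4 of 12 tested, against -0.95 to -0.00 in the other 9 libraries (Krt4, Trp63, Sprr3 and Dsg3 were at the floor throughout). Without that library the GST median was 0.17 in 29a 4d and 0.25 in 29b 4d, and the median over all 55 members in 29a 4d against NC-miR 4d was -0.05, against 0.17 with it.

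**Figure D4:**
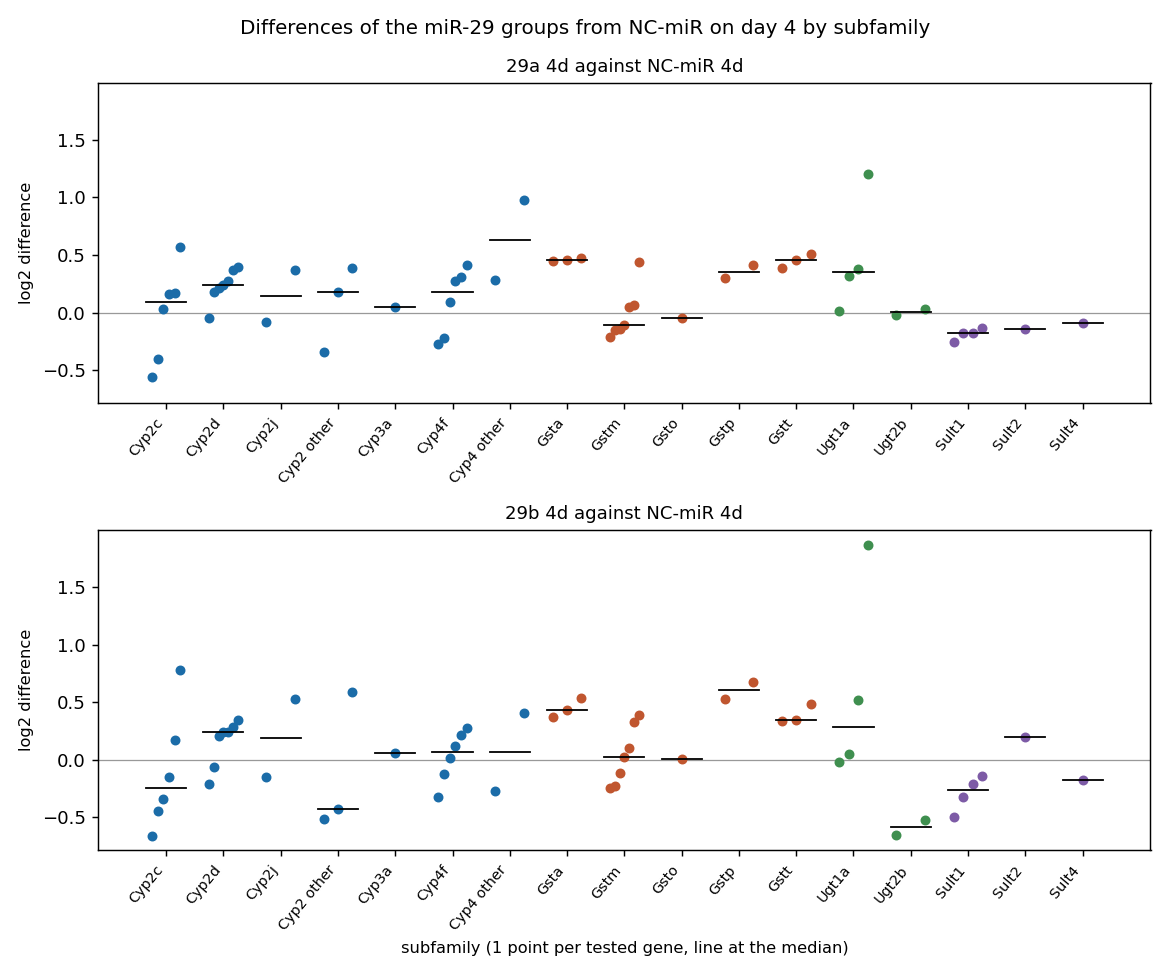
Log2 difference from NC-miR 4d (vertical axis) of each tested gene, by subfamily (horizontal axis), for 29a 4d (top) and 29b 4d (bottom); points are genes and lines are medians. Gsta, Gstp and Gstt genes lie above 0 in both panels, and the 4 Sult1 genes lie below 0 in both.

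Sulfotransferases lay on the other side of NC-miR 4d. All 6 tested SULT genes were below it in 29a 4d, with a median of -0.16, and 5 of 6 in 29b 4d, with a median of -0.19. In 29a 4d, 4 SULT genes lay below without overlap (66.7%, against 21.4% of all features). In 29b 4d, 3 lay below (50%, against 20.2%) and Sult2b1 lay above (16.7%, against 21.7%). Sult4a1 passed the floor through NC-miR 2d and was at the floor in 29a 4d replicate 2, 29b 4d replicate 1 and NC-miR 4d replicate 2. Without it the SULT medians were -0.18 in 29a 4d and -0.21 in 29b 4d. Of the remaining 5 genes, 4 (80%) and 3 (60%) lay below without overlap. Sult1d1, which sulfates catecholamines in mouse, had -0.10 and 0.02 in 29a 4d and -0.18 and -0.53 in 29b 4d, against 0.24 and 0.05 in NC-miR 4d (-0.18, limma adjusted p = 0.821, and -0.50, adjusted p = 0.374). Sult1b1, which sulfates thyroid hormones, had -0.02 and 0.01 in 29a 4d and 0.10 and 0.01 in 29b 4d, against 0.20 and 0.31 in NC-miR 4d (-0.26, adjusted p = 0.709, and -0.21, adjusted p = 0.579). Sult1c2 had 0.10 and 0.14 in 29a 4d and 0.24 and -0.27 in 29b 4d, against 0.35 and 0.26 in NC-miR 4d. Sult1a1, the main phenol sulfotransferase, overlapped NC-miR 4d in both. The exception in 29b 4d was Sult2b1, 0.20 above NC-miR 4d (adjusted p = 0.625). Against normal, the SULT median was 0.24 in NC-miR 4d, 0.06 in 29a 4d and 0.05 in 29b 4d. In NC-miR 4d, 4 of 6 SULT genes lay above normal without overlap (66.7%, against 23.4% of all features).

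Ugt2b34 and Ugt2b35 did not overlap between the miR-29 groups, though neither was called. Ugt2b34 had 0.22 and 0.25 in 29a 4d, against -0.09 and -0.42 in 29b 4d (0.49 ± 0.17, limma adjusted p = 0.657), with 0.13 and 0.38 in NC-miR 4d. Ugt2b35 had 0.21 and 0.22 in 29a 4d, against -0.68 and -0.24 in 29b 4d (0.67 ± 0.25, adjusted p = 0.661), with -0.05 and 0.42 in NC-miR 4d. In 29b 4d both were below NC-miR 4d without overlap, with differences of -0.52 (adjusted p = 0.349) and -0.65 (adjusted p = 0.381). Their transcripts share 1.44% and 0.303% of 50-base stretches with other genes. Limma called no member and no feature between 29a 4d and 29b 4d (0%), and 8 of 55 members had an unadjusted p under 0.05, against 976 of 13051 features. Besides the UGT genes, these included Cyp2f2, with 0.31 and 0.31 in 29a 4d against -0.31 and -0.29 in 29b 4d (0.61 ± 0.22, adjusted p = 0.657), and Cyp4f17 (-0.50, adjusted p = 0.661).

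**Figure D5:**
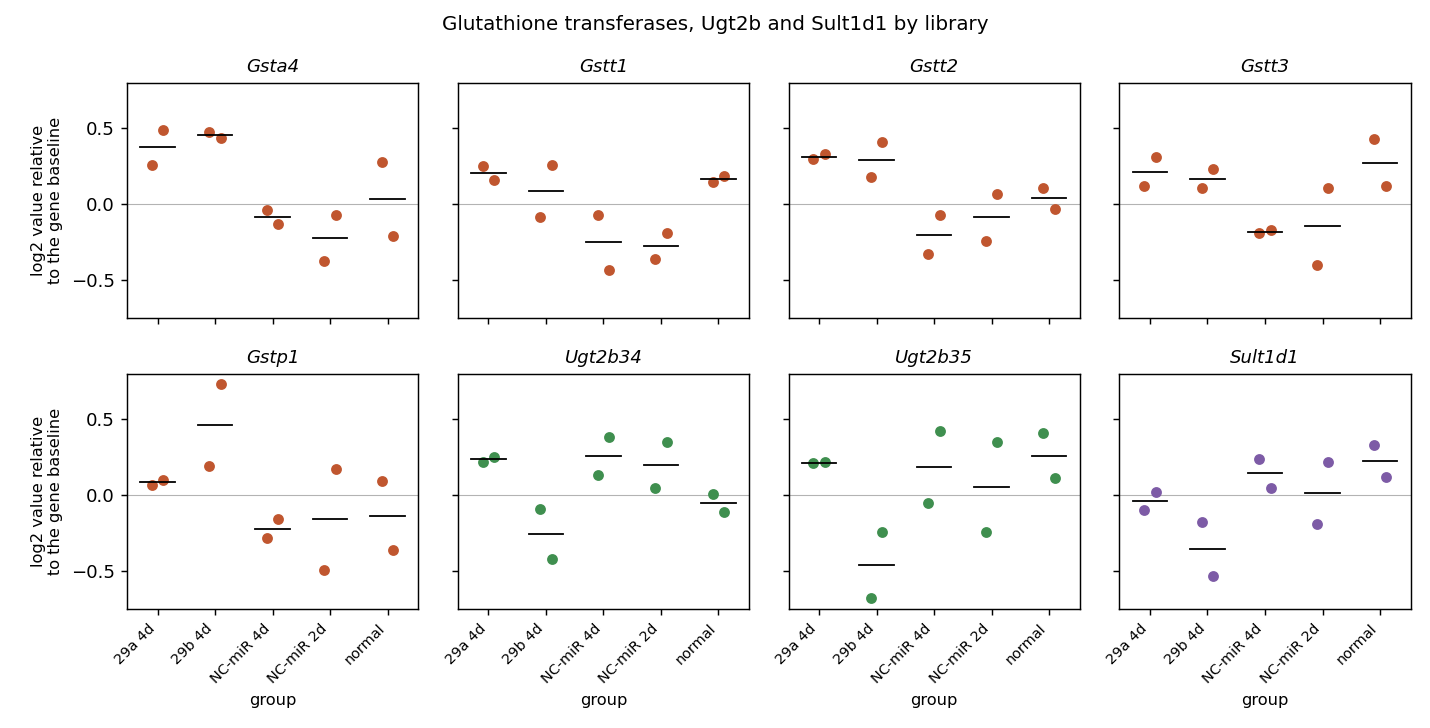
Log2 value relative to the gene baseline (vertical axis) of 8 conjugating enzymes in the 5 groups; points are libraries and lines are means of 2. Gsta4 and Gstt2 are higher in both miR-29 groups than in NC-miR 4d, and Ugt2b34 and Ugt2b35 are lower in 29b 4d than in 29a 4d.

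Genes around the 4 families were read from lists of regulators, partners, other enzymes and carriers. Over all DSS groups, limma called 1.66% of all tested features, and 2097 of 13051 had an unadjusted p under 0.05. Among 22 tested xenobiotic regulators none was called in this comparison, and 8 had an unadjusted p under 0.05. The median was 0.26, and 18 of 22 were above normal. The nearest to the threshold was Nr1h4, the bile acid receptor FXR (0.74 ± 0.15, adjusted p = 0.054). Ahr, Nr1i2 (PXR) and Hnf4a ran from -0.40 to 0.28 over all libraries. Nr1i3 (CAR) had 1.08 and 0.80 in 29a 4d, against -0.50 and 0.83 in NC-miR 4d and -0.50 in both normal libraries, and it was at the floor in 3 libraries.

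The clock list gave the most calls of these lists. It held the PAR bZIP output factors, which in mouse liver drive many xenobiotic genes, and their clock inputs. Of 15 tested, 9 rose and 3 fell over all DSS groups, with a median of 1.12, where 1.66% of all tested features were called. Dbp, Tef, Hlf and Nfil3 were among these, and the other called genes were clock inputs such as Arntl and Nr1d1. Dbp had 1.98 and 1.67 in 29a 4d, 1.70 and 1.39 in 29b 4d, 1.10 and 1.47 in NC-miR 4d, 1.68 and 1.37 in NC-miR 2d, and -2.90 and -3.03 in normal libraries (4.51 ± 0.16, limma adjusted p = 1.78e-05). Tef rose by 2.54 ± 0.10 (adjusted p = 3.29e-05) and Hlf by 0.97 ± 0.17 (adjusted p = 0.0313), while their opponent Nfil3 fell by 2.06 ± 0.25 (adjusted p = 0.011). The labels give no hour of sampling, so time of day and treatment cannot be told apart in any difference from normal. None of the 15 was called against NC-miR 4d. An unadjusted p under 0.05 was found for 6 in 29a 4d and 2 in 29b 4d, against 965 and 1625 of 13051 features.

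Partners and cosubstrate suppliers of the 4 families gave 0 calls of 14 by limma over all DSS groups, where 1.66% of all tested features were called. Of the 14, 1 had an unadjusted p under 0.05, against 2097 of 13051 features, and the median was 0.11. Por, the electron donor of microsomal P450 enzymes, had 0.41 and 0.32 in 29a 4d and 0.39 and 0.63 in 29b 4d, against 0.18 and -0.04 in NC-miR 4d (0.29, adjusted p = 0.703, and 0.44, adjusted p = 0.376). Of 40 other phase I enzymes none was called by limma over all DSS groups (8 with an unadjusted p under 0.05, median 0.19). Nearest were the carboxylesterases Ces2c (0.63, adjusted p = 0.102) and Ces2e (0.49, adjusted p = 0.106). Of 15 other phase II enzymes, Hpgds rose, by 0.87 ± 0.12 (adjusted p = 0.0177). Hpgds makes prostaglandin D2 and is itself a glutathione transferase of another class.

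Of 15 drug and bile acid carriers, with a median of 0.06, 2 rose over all DSS groups, where 1.66% of all tested features were called. Slc10a2, the bile acid uptake carrier, had 0.64 and 0.42 in 29a 4d, 0.88 and 0.31 in 29b 4d, 0.18 and 0.53 in NC-miR 4d, 0.15 and 0.32 in NC-miR 2d, and -1.24 and -1.54 in normal libraries (1.82 ± 0.18, limma adjusted p = 0.00435). The prostaglandin carrier Slco2a1 rose by 0.81 ± 0.14 (adjusted p = 0.0376). The efflux pump Abcg2 differed from normal by -0.52 (adjusted p = 0.0825). Abcc2, which exports glucuronides, was at the floor throughout. Among 16 oxidative stress genes of the NFE2L2 type none was called by limma (4 with an unadjusted p under 0.05, against 2097 of 13051 features, median -0.03).

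Some markers of the tissue, those of B cells, absorptive colonocytes and goblet cells, had medians that did not overlap between DSS and normal libraries. B cell markers, 7 of 8 tested, had medians of -0.79 to 0.68 in DSS libraries, against 1.33 and 1.5 in normal libraries. Absorptive colonocyte markers, 11 of 12 tested, had medians of -0.07 to 0.48 in DSS libraries, against -0.31 and -0.55 in normal libraries. Goblet cell markers, 7 of 8 tested, had medians of -0.16 to 0.49 in DSS libraries, against -0.19 and -0.30 in normal libraries. The part of these cells in the calls of Ugt1a1, Sult2b1, Cyp2c68 and Cyp4f14 was not tested. Medians of columnar epithelium, smooth muscle, fibroblast, endothelium, macrophage, adipocyte and squamous markers overlapped between DSS and normal libraries. For columnar epithelium they were -0.10 to 0.42 in DSS libraries, against 0.03 and -0.17 in normal libraries. Of 8 hepatocyte markers, Apoa1, Apoa2, Fgb and Ahsg were at the floor in all 10 libraries, and the other 4 were tested, with medians of -0.36 to 0.21 in DSS libraries, against 0.19 and 0.13 in normal libraries.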

How the data were processed

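RNA of the colorectum was sequenced from stranded mRNA libraries, per the labels' protocols. TopHat2 2.0.13, Bowtie2 2.2.3, SAMtools 0.1.19, Cuffnorm 2.2.1 and build mm10 are named in the submitters' processing notes. Although the file headers say FPKM, the deposited values are log2 ratios set against each gene's baseline. Base 2 was read from their spacing: raised to that base, 99.5% of 6028 distances from the floor (9 libraries) came within 0.1 step of numbers with 6 significant digits, against 19.7% for base e and 21.8% for base 10.

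The most frequent value of each library (-0.0427 to 0.0331) was subtracted. The floor of a gene is its lowest value where at least 2 libraries share it (within 2e-05). Libraries had 12680 to 12940 features above it. Differences came from limma 3.58.1 in R 4.3.3, with 5 group means and all 10 libraries, and no replicate block. P-values are 2-sided. A difference from a group at the floor is written "at least".

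Named genes were drawn from all called members, up to 6 of the largest non-overlapping differences in each direction and a list of 35 symbols. In the other lists they were drawn from the called genes and up to 4 with the smallest p. Not every gene under these rules is described. Some genes outside them are named, among them Cyp2c67, Cyp2w1, Gsto2 and several genes at the floor, such as Abcc2. Nr1i3, Ahr, Hnf4a, Nr1i2, Rpl18, Fam83e and Car11 were added after their values were seen. Members and lists were chosen with earlier results of these data known. Promoter sequences come from RefSeq (GRCm38.p6), and miRNA sequences are given on the same build. Positions, junction sequences, 3′ UTRs and 50-base comparisons come from GENCODE M21 (GRCm38), which held 131 of the 132 members. The fitting code was tested on simulated data.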

Additional observations from a re-analysis of the deposited data

How the results depend on the processing

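No member difference that was called, or was among the largest without overlap in its comparison, changed sign under any alternative. All of these genes were without overlap, so leaving out 1 library could not turn their sign. Their unchanged sign is therefore no measure of stability. Of 9 comparisons, the count of called members moved in 4. Over all DSS groups 4 members were called: 5 with members above the floor in all 10 libraries (Cyp2d12 added, adjusted p = 0.0498), 3 with the median of all features subtracted (Cyp4f14 lost), 2 with values as deposited, 2 with the replicate number as a block, 0 with no filter on the floor, and 0 to 6 with 1 library left out. For 29a 4d against normal, 1 member was called: 0 with only the libraries compared, and 0 to 1 with 1 library left out. For 29b 4d against normal, 1 was called, and 2 with only features above the floor in all 10 libraries. The count was 0 with no filter and 0 with only the libraries compared. With 1 library left out, the difference of Ugt1a1 ran from 1.06 to 1.26. Without 29b 4d replicate 1, the difference of Ugt1a6b, a gene at the floor in 7 libraries, was 3.06. For NC-miR 2d against normal, 0 were called, and 0 to 2 with 1 library left out. No filter adds features at the floor to the fit; the cause of the other shifts was not tested.

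Family medians moved beyond the typical standard error only with 1 library left out, but the GST median over all DSS groups, 0.02, turned to -0.01 with values as deposited. With 1 library left out, the GST median ranged from -0.28 to 0.04 for NC-miR 4d against normal, from -0.32 to -0.00 for NC-miR 2d against normal, from -0.16 to 0.14 over all DSS groups, from 0.15 to 0.35 for 29a 4d and from 0.11 to 0.43 for 29b 4d against NC-miR 4d. The median over all members ranged from -0.05 to 0.26 for 29a 4d against NC-miR 4d.

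The replicate numbers did not pair the libraries: deviations of same-numbered libraries from their group means correlated at -0.24 to 0.11 between groups, over 13051 features. Apart from the count above, the block ended the calls of Cyp2c68 (adjusted p = 0.0683) and Cyp4f14 (0.0788). With 2 libraries a group and no counts, small differences in weakly expressed members cannot be shown.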

Other observations

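A few members lay above the floor in single libraries and could not be tested. Cyp2w1, a P450 known from colon tumours, was 0.42 above its floor in 29a 4d replicate 2 and 0.39 in 29b 4d replicate 1, and at the floor in the other 8 libraries. Cyp2b10, a CAR target, was 0.22 above it in 29a 4d replicate 1 and 0.21 in normal replicate 1. Gsto2 was above it in 5 libraries of 5 groups, by 0.02 to 0.27. Gsta1, by contrast, was tested, because both 29b 4d libraries lay above its floor. It was 0.94 above the floor in 29a 4d replicate 1, 0.48 and 0.27 in 29b 4d and 0.06 in normal replicate 1. In all 4 NC-miR libraries it was at the floor. It shares 89.7% of its 50-base stretches with other genes.

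Outside the 4 families, some enzymes of the same pathway stood higher in 29a 4d than in NC-miR 4d without being called. Inmt, a methyltransferase of indolethylamines, had 1.16 and 0.67 in 29a 4d, against -0.63 and -0.85 in NC-miR 4d (1.65 ± 0.38, limma adjusted p = 0.471). Aldh3a1, an aldehyde dehydrogenase, had 0.99 and 0.46 in 29a 4d, against -0.22 and -0.39 in NC-miR 4d (1.03 ± 0.25, adjusted p = 0.517). Ephx1, the microsomal epoxide hydrolase, had 0.67 and 0.41 in 29a 4d, against 0.11 and -0.20 in NC-miR 4d (0.59 ± 0.16, adjusted p = 0.589). Normal libraries had -0.48 and 0.75 for Inmt and 0.16 and 0.88 for Aldh3a1, so the 29a 4d values of both genes overlapped normal. Ephx1 had -0.21 and -0.09 in normal libraries, below both 29a 4d libraries. Mgst3, a microsomal glutathione transferase, was 0.32 higher in 29a 4d (adjusted p = 0.666) and 0.53 in 29b 4d (adjusted p = 0.337), where no library overlapped NC-miR 4d.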
